A study of Homo sapiens with 18 samples.

Results

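Aldehyde dehydrogenases oxidise aldehydes to carboxylic acids, and the transcripts of 10 of them were followed in lung cells with and without X-ray irradiation. The members are ALDH1A1, ALDH1A2, ALDH1A3, ALDH1B1, ALDH2, ALDH3A1, ALDH3A2, ALDH3B1, ALDH4A1 and ALDH7A1. They were taken by symbol, matched to the Entrez identifiers of the deposited table, and are 10 of its 18475 genes. Poly(A) RNA was sequenced from 3 established lines labelled wild type: BEAS-2B, an immortalised line from bronchial epithelium, H446, from a small cell lung cancer, and A549, from a lung adenocarcinoma. For each line there were 3 control libraries from unirradiated cells and 3 libraries from cells that received 10 Gy of X-rays and were sequenced 24 h later. All cells were kept in RPMI-1640 medium with fetal bovine serum, and the experiment asked how normal and malignant lung cells differ in their reaction to radiation. The controls carry the title "before", and the time at which they were collected was not given in the sources used here. The methods of the publication say in general terms that experiments were repeated, but neither they nor the labels say that these libraries came from separate cultures, so p-values measure the spread between these libraries, which may be technical. Each kind of cell is represented by 1 line.

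Levels are in FPKM (fragments scaled by transcript length and by library size), a unit inferred from the values. A gene was tested where at least 3 of the libraries compared reached 1 FPKM, on the scale log2(FPKM + 1), which understates changes of genes with low levels. For differences of response between lines, at least 3 libraries of the same line had to reach it. A gene is said to rise, fall or differ where its adjusted p lay under 0.05. Of the 10 members 9 passed this filter in A549, 7 in BEAS-2B, 7 in H446 and 9 in the comparisons between lines, and ALDH1A2 passed in none. The numbers of reads were not given. Summed FPKM of a library ran from 461255.2 to 529935.6. By the step size of FPKM in 23 to 42 short genes the deepest library had 1.18 times the depth of the shallowest. Only step sizes that gave a read total within a preset range were used, so a much wider difference in depth could not appear.

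CDKN1A, a cell cycle inhibitor induced by p53, was examined first as a check of irradiation. In A549 it was at 100.68, 106.25 and 102.82 FPKM in the controls and at 317.9, 293.77 and 297.43 FPKM after 10 Gy. In BEAS-2B the controls were at 79.93, 86.36 and 86.08 FPKM and the irradiated libraries at 309.73, 102.24 and 487.79 FPKM. BEAS-2B 10 Gy replicate 2 therefore lay close to the controls, and whether its label is right was not tested. In H446 CDKN1A was at 75.72, 72.81 and 71.66 FPKM without and 72.44, 63.57 and 65.85 FPKM with irradiation. It did not rise, so it gives no check of irradiation in H446, and whether those labels are right was not tested. MDM2, the p53 ubiquitin ligase that p53 itself induces, gave the same picture. In BEAS-2B 10 Gy replicate 2 it was at 16.17 FPKM, beside 47.49 and 87.83 FPKM in replicates 1 and 3 and 17.46 to 18.86 FPKM in the controls. Over 8 p53 target genes the median log2 difference from the control mean was -0.01 in this library, 1.33 and 1.88 in the other irradiated BEAS-2B libraries, 1.40 to 1.52 in A549 and -0.04 to 0.03 in H446. By the test, 8 of 8 of these genes rose in A549, 1 of 7 rose in H446 and 0 of 7 rose in BEAS-2B, where 7 of 7 rose once replicate 2 was left out. Calls of members that rest on irradiated BEAS-2B cells are given with and without that library. The libraries also differed by base composition. In H446 the deviation of each from the mean of the line correlated with the GC content of 11380 transcripts at a Spearman rho of 0.35 to 0.46 in the controls and -0.50 to -0.11 after irradiation, across genes, which are not independent replicates. In BEAS-2B the range was wider, from -0.63 to 0.01 in the controls and -0.31 to 0.70 after irradiation with 0.70 in replicate 2, and the groups overlapped, while in A549 it was -0.13 to 0.17. The part of base composition in the results for BEAS-2B was tested only by the removal of this trend.

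The labelled cell types were compared with their markers. Of 8 epithelial genes, 6 had a mean of at least 1 FPKM in H446, 5 in A549 and 5 in BEAS-2B, led by KRT8 in BEAS-2B (555 FPKM) and H446 (1320 FPKM) and KRT7 in A549 (672 FPKM). KRT14 was at 0 in every library of BEAS-2B and A549 and KRT5 in every A549 library, and CDH1 was below 1 FPKM in BEAS-2B and H446. Of 7 neuroendocrine genes 5 were measured (NEUROD1 and INSM1 were not analysed here), and in H446, the small cell line, they summed to only 0.28 to 0.78 FPKM per library, against sums of 6.39 to 7.56 in BEAS-2B and 6.52 to 7.99 in A549. Alveolar and adenocarcinoma genes summed to at most 1.28 FPKM in A549, with NAPSA at 0.76 FPKM. The lineage markers of H446 and A549 were thus near 0. Mesenchymal genes were led by VIM (1407 FPKM in A549, 1010 in H446, 919 in BEAS-2B), and blood and endothelial genes by CD68 (29.3 FPKM in A549, 8.98 in H446, 10.4 in BEAS-2B).

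The family draws on NAD or NADP to turn reactive aldehydes from alcohol, retinol, membrane lipids, amino acids and drugs into acids that the cell can use or excrete. Members differ in compartment and substrate: some make retinoic acid, some clear acetaldehyde in mitochondria, and others act on fatty or aromatic aldehydes or take part in the breakdown of proline and lysine. In the lung, ALDH1A1 and ALDH3A1 are known for high levels in many non-small cell cancers, and enzymes of the family are known to inactivate oxazaphosphorine drugs and the aldehydes that peroxidised lipids release.

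ALDH1A1, the cytosolic enzyme that oxidises retinal to retinoic acid, was the most abundant member in unirradiated A549, at 1523.47, 1525.14 and 1539.19 FPKM, place 35 among all genes. It was at 0 to 0.03 FPKM in the controls of BEAS-2B and H446. The levels of A549 were therefore far outside those of the other lines, above them in 3 of 3 libraries. The log2 difference was 10.55 from BEAS-2B and 10.56 from H446. ALDH1A1 entered these comparisons only through A549, where it is high, so no p-value is given for them. Against levels this close to 0 the size of both differences is set by the added 1 FPKM. ALDH1A3, which makes retinoic acid as well, was lower in H446 (5.14 ± 0.391 FPKM, SD, n = 3) than in BEAS-2B (7.98 ± 0.689) or A549 (7.34 ± 0.306). It differed between H446 and each of the other lines, by -0.55 from BEAS-2B and 0.44 for A549 minus H446 (adjusted p = 1.26e-05 and 7.99e-05), but A549 and BEAS-2B were not separated (-0.10, adjusted p = 0.196). ALDH1A2, the retinal dehydrogenase of the embryo, did not pass the filter in any line: it was at 0 in all 6 A549 libraries, at most 0.06 FPKM in BEAS-2B and 0.14 to 0.33 FPKM in H446.

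The 250 bases before the RefSeq start (GRCh38.p14) are shown for ALDH1A1, which reached 1 FPKM in A549 only, and for ALDH1A3 and ALDH3A2, which were measured in all 3 lines and, as given below, rose in A549 and fell in H446, ALDH1A3 with a weaker call in H446. Capitals mark CCAAT and GGGCGG on either strand, 3 of the GGGCGG matches of ALDH1A3 lie within 18 bases and 2 of them overlap by 1 base, and ALDH3A2 holds none. The windows are chr9:72953054-72953303 on the minus strand for ALDH1A1, chr15:100879581-100879830 on the plus strand for ALDH1A3 and chr17:19647886-19648135 on the plus strand for ALDH3A2, written 5′ to 3′.
ALDH1A1: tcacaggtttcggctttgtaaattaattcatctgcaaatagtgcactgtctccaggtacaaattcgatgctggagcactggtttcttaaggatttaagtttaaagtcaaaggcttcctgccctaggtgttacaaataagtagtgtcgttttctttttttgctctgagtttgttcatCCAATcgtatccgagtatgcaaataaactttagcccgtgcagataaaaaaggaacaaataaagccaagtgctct
ALDH1A3: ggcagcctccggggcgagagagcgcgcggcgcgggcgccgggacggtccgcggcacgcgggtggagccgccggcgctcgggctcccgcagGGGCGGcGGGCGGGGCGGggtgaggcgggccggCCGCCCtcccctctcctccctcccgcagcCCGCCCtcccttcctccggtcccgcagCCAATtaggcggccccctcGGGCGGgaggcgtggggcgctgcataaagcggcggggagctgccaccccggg
ALDH3A2: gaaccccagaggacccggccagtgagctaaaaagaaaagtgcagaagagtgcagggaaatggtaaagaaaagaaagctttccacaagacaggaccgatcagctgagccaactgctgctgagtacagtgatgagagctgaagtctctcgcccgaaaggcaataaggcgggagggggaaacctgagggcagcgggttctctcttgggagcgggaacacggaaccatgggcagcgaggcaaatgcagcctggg
The window of ALDH1A1 is 38.4% GC with 6 CG pairs, that of ALDH1A3 82.4% GC with 38 CG pairs and that of ALDH3A2 55.6% GC with 9 CG pairs. Of the 10 members 8 matched an entry in the RefSeq promoter table, the exceptions being ALDH2 and ALDH3A1. ALDH3A2 had 2 entries, of which 1 window is shown. As a check of orientation, the bases that follow the start in each entry were looked for in GENCODE transcripts of the same gene. They were found for 2 of 2 entries of ALDH3A2 and for the 1 entry of ALDH1A1, but not for that of ALDH1A3. The windows shown were not part of this check. Searched on both strands, TATAAA and TGACNNNGC were in 0 of the 8 windows, CCAAT was in 5 (ALDH1A1, ALDH1A2, ALDH1A3, ALDH1B1 and ALDH7A1) and GGGCGG in 5 (ALDH1A2, ALDH1A3, ALDH1B1, ALDH4A1 and ALDH7A1). Over 35116 promoters of the same length these motifs occur in 10.7% (TATAAA), 10.9% (TGACNNNGC), 32% (CCAAT) and 42.6% (GGGCGG). A match is a description of letters and not of a bound site.

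ALDH3A1, which oxidises aromatic and lipid-derived aldehydes and is known as a crystallin of the cornea, ranked next in A549, at 664.84, 661.1 and 644.76 FPKM in the controls (place 105). H446 was lower, at 53.66, 49.59 and 53.17 FPKM, and BEAS-2B was at 0.05, 0.1 and 0.21 FPKM. The groups formed 3 separate levels, each difference in 3 of 3 libraries. The log2 difference was 3.63 for A549 minus H446 (SE 0.056, adjusted p = 1.02e-14). It was 9.20 for A549 minus BEAS-2B and 5.57 for H446 minus BEAS-2B. The sizes against BEAS-2B, where ALDH3A1 did not pass the filter, are set by the added 1 FPKM. ALDH3A1 entered these comparisons only through the other lines, so no p-value is given against BEAS-2B. ALDH3A2, the fatty aldehyde dehydrogenase of the endoplasmic reticulum, was at 82.7 ± 0.367 FPKM in H446 and 75.5 ± 1.15 in A549, against 30.8 ± 2.14 in BEAS-2B (SD, n = 3). Both tumour lines lay above BEAS-2B, by 1.40 in H446 and 1.27 in A549 on the log2 scale. The difference of -0.13 between A549 and H446 (SE 0.049, adjusted p = 0.027, A549 below in 3 of 3) did not hold without H446 control replicate 1, 2 or 3 (adjusted p = 0.0587, 0.0599 and 0.0688) or A549 control replicate 1 or 3 (0.0845 and 0.0526), nor with quantile normalization (0.875), within a range of 0.00143 to 0.875 over all alternatives. ALDH3B1, which acts on lipid aldehydes at membranes, followed the order A549 (91.9 FPKM), H446 (46.8 FPKM) and BEAS-2B (20 FPKM), with 2.14 for A549 minus BEAS-2B, 1.18 for H446 minus BEAS-2B and 0.96 for A549 minus H446 (SE 0.048 each).

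ALDH2, the mitochondrial enzyme that clears acetaldehyde, was at 79.4 ± 0.818 FPKM in A549, 21.2 ± 0.772 in H446 and 15.1 ± 0.488 in BEAS-2B (SD, n = 3), with log2 differences of 2.32 (A549 minus BEAS-2B), 1.86 (A549 minus H446) and 0.47 (H446 minus BEAS-2B). ALDH1B1, its close mitochondrial relative, varied little: 26.4 FPKM in H446, 20.3 in A549 and 17.1 in BEAS-2B. Its differences of 0.61 (H446 minus BEAS-2B), 0.24 (A549 minus BEAS-2B) and -0.37 (A549 minus H446) passed the test. ALDH4A1 completes the oxidation of proline to glutamate and had low levels in each line, at 5.42 FPKM in BEAS-2B and 4.84 in A549 but only 0.93 in H446. It was lower in H446 than in BEAS-2B (-1.73, SE 0.066) and higher in A549 than in H446 (1.60, SE 0.066). The added 1 FPKM holds these sizes down, since ALDH4A1 did not pass the filter in H446 and entered through the other lines. A549 and BEAS-2B were not separated (-0.14, adjusted p = 0.0731). That value passed without BEAS-2B control replicate 1 (adjusted p = 0.0454) and with quantile normalization (0.0381), within 0.0381 to 0.761 over all alternatives. ALDH7A1, which acts in lysine breakdown and on betaine aldehyde, had another profile: BEAS-2B held 82.4 FPKM, A549 30.5 and H446 29.5. Both tumour lines were lower than BEAS-2B (-1.40 and -1.45, SE 0.042), and they were not separated from each other (0.05, adjusted p = 0.308, which became 0.0371 with quantile normalization, within 0.0371 to 0.98).

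Counted over the members, 7 of the 9 tested differed between A549 and BEAS-2B controls (6 higher in A549, 1 lower), where 85.1% of all 12854 genes tested did (38.8% higher, 46.3% lower). For H446 and BEAS-2B it was 8 of 9 (5 higher in H446, 3 lower) beside 82.6% of all genes (36% higher, 46.7% lower). For A549 and H446 it was 8 of 9 (6 higher in A549, 2 lower) beside 84.4% (43.1% higher, 41.4% lower). These counts include members called against a line where they did not pass the filter. For A549 and BEAS-2B they were ALDH1A1 and ALDH3A1, and for H446 and BEAS-2B ALDH3A1 and ALDH4A1. For A549 and H446 they were ALDH1A1 and ALDH4A1. Most genes differ between any of these lines, so the counts say little of the family. ALDH1A1 and ALDH3A1 had the widest range of levels, from under 1 FPKM to 1529 and 657 FPKM in the controls, while the control means of ALDH1B1 lay within 17.1 to 26.4 FPKM.

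**Figure D1:**
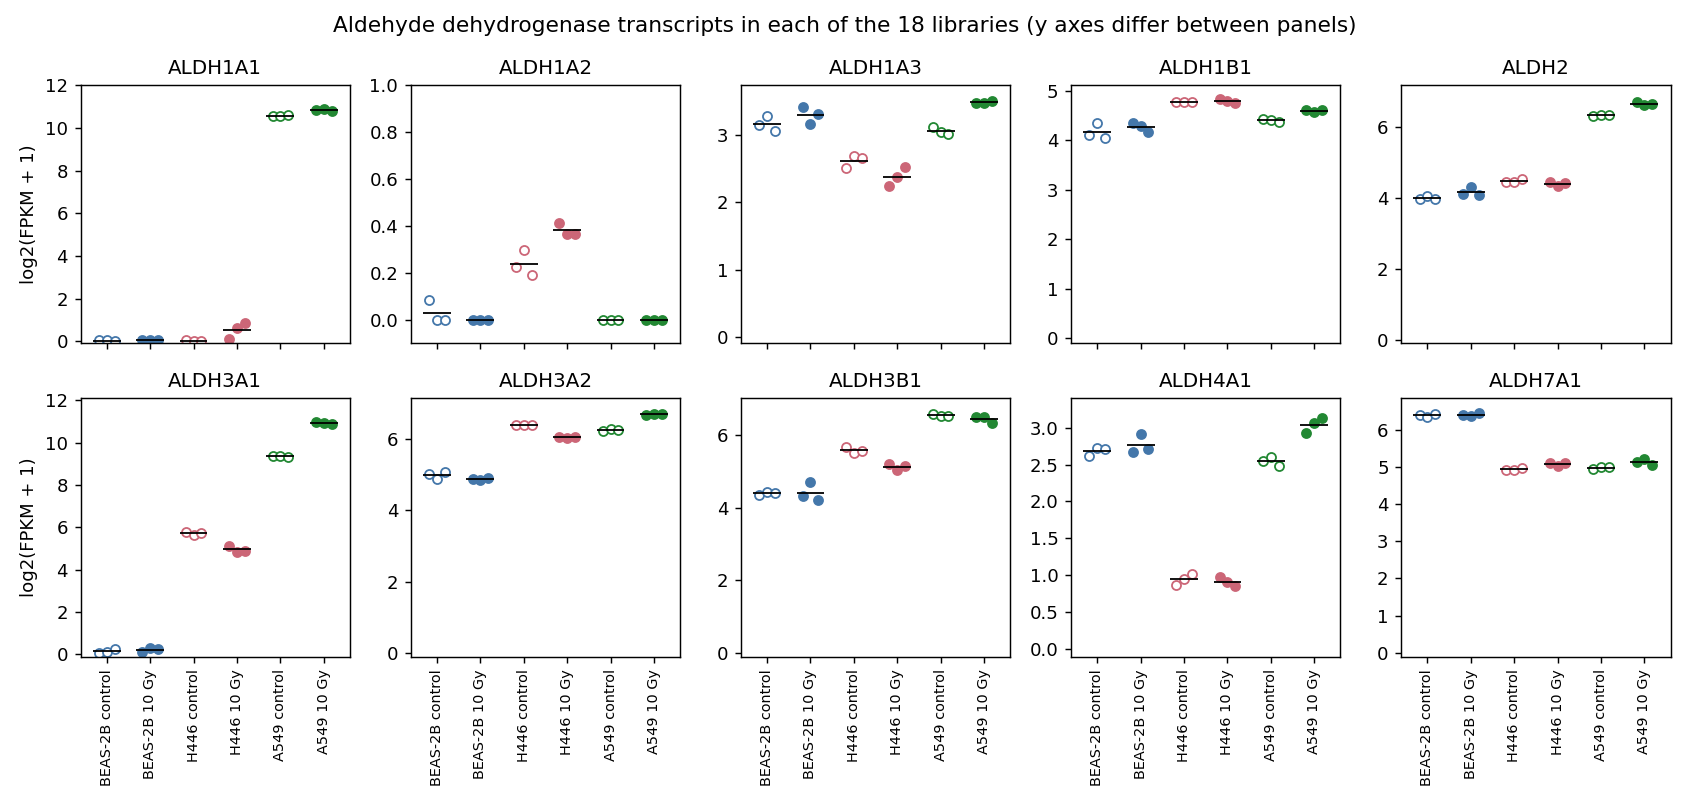
Level of each member as log2(FPKM + 1) in the 18 libraries, open circles for controls, filled circles for 10 Gy, black lines for group means (n = 3), with a y axis of its own in each panel. ALDH1A1 is near 0 outside A549, ALDH3A1 forms 3 levels by line, and ALDH7A1 is the 1 member whose highest group of all 6 is in BEAS-2B.

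In A549 the family's largest change after irradiation was in ALDH3A1. Its level went from 664.84, 661.1 and 644.76 FPKM to 2029.61, 1942.4 and 1895.33 FPKM, from place 105 to place 22 among all genes. The groups were far apart, with a ratio of means of 2.98 and a log2 fold change of 1.57 (SE 0.04, adjusted p = 7.54e-11, 3 of 3 irradiated libraries above all controls). In these bulk libraries a change in the share of cells that hold a transcript cannot be told apart from a change in RNA per cell. ALDH1A1, already abundant, was at 1849.23, 1909.69 and 1747.59 FPKM after irradiation, 1.2 times its control mean. It rose by a log2 fold change of 0.26 (SE 0.043, adjusted p = 0.000344, 3 of 3 above), a call that was lost with all 18 libraries in 1 fit (adjusted p = 0.083, within 4.97e-05 to 0.083 over all alternatives). Irradiated A549 thus held more ALDH3A1 (1956 FPKM) than ALDH1A1 (1836 FPKM), the reverse of the controls (657 and 1529 FPKM).

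The other members that act on lipid aldehydes did not move together in A549. ALDH3A2 went from 74.23, 76.39 and 75.97 FPKM to 101.96, 103.57 and 104.04 FPKM, a rise of 0.45 (SE 0.034, adjusted p = 7.58e-07, 3 of 3 above). ALDH3B1 was at 93.65, 90.68 and 91.39 FPKM in the controls and 88.78, 88.5 and 79.57 FPKM after irradiation. All 3 irradiated values of ALDH3B1 were below the controls, but the log2 fold change of -0.10 (SE 0.045, adjusted p = 0.0751) did not pass. It passed without A549 10 Gy replicate 1 (adjusted p = 0.0462) and with totals made equal (0.0473), within 0.0462 to 0.4 over all alternatives, so its side of the threshold depends on these choices.

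ALDH2 and ALDH1B1, the mitochondrial relatives, both rose in A549. ALDH2 went from 78.62, 80.25 and 79.31 FPKM to 103.58, 97.79 and 99.48 FPKM, by 0.33 on the log2 scale (SE 0.036, adjusted p = 1.38e-05, 3 of 3 above). ALDH1B1 rose from 20.3 to 23.3 FPKM, by 0.19 (SE 0.043, adjusted p = 0.00245, 3 of 3 above). Among members with lower levels, ALDH4A1 went from 4.87, 5.07 and 4.58 FPKM to 6.57, 7.38 and 7.72 FPKM, by 0.49 (SE 0.069, adjusted p = 0.000104, 3 of 3 above), and ALDH1A3 from 7.69, 7.23 and 7.11 FPKM to 10.16, 10.15 and 10.36 FPKM, by 0.43 (SE 0.054, adjusted p = 4.46e-05, 3 of 3 above). On the FPKM scale these are ratios of 1.49 and 1.39. ALDH7A1 rose least, from 30.5 to 33.8 FPKM, by 0.14 (SE 0.047, adjusted p = 0.0229, 3 of 3 above), a call lost without A549 control replicate 1 (adjusted p = 0.0945), without A549 10 Gy replicate 2 (0.097) and with no filter on low values (0.0727), within 0.00696 to 0.097 over all alternatives. In all, 8 of the 9 members tested rose and 0 fell, where 51.7% of all 11993 genes tested changed, 25.3% of them up and 26.4% down as shares of the genes tested. In A549 markers moved both ways, with 1 epithelial gene up (CDH1 0.49) and 1 down (KRT7 -0.71) of 5 tested and 0 mesenchymal genes up and 2 down of 5 (CDH2 -0.41, VIM -0.13). The 1 blood or endothelial gene tested rose (CD68 0.16, from 27.6 to 31 FPKM). The part of these markers in the rises of the members was not tested. After these changes the highest levels of ALDH3A2 among the 6 groups were in irradiated A549, followed without overlap by H446 controls, A549 controls and irradiated H446, whereas for ALDH7A1 the irradiated A549 and H446 libraries overlapped, as did their controls.

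H446 gave another pattern, in which the ALDH3 enzymes fell. ALDH3A1 went from 53.66, 49.59 and 53.17 FPKM to 34.3, 27.82 and 28.93 FPKM, a ratio of 0.582. The groups did not overlap, and the log2 fold change was -0.77 (SE 0.068, adjusted p = 2.3e-05, 3 of 3 irradiated libraries below all controls). ALDH3B1 went from 49.77, 44.81 and 45.85 FPKM to 35.9, 31.82 and 34.39 FPKM, -0.45 on the log2 scale (SE 0.053, adjusted p = 0.000162, 3 of 3 below). ALDH3A2 went from 82.49, 82.54 and 83.15 FPKM to 65.26, 64.77 and 65.42 FPKM, -0.34 on the log2 scale (SE 0.032, adjusted p = 3.25e-05, 3 of 3 below). The replicates of ALDH3A2 lay close together, with group means and SDs of 82.7 ± 0.367 and 65.1 ± 0.339 FPKM. These calls held under every alternative run, the removal of the GC trend included, which lowered the number of members called. Markers moved as well in H446: of the epithelial list 0 rose and 3 fell of 6 tested (KRT7 -0.25, KRT18 -0.20), and of the mesenchymal list 2 rose and 0 fell of 6 (LUM 0.30, ZEB1 0.18). The epithelial genes summed to 3337 to 4000 FPKM over the libraries and the mesenchymal genes to 1051 to 1128 FPKM, and their part in the falls of ALDH3A1, ALDH3A2 and ALDH3B1 was not tested.

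The remaining members moved little in H446. ALDH1A3 was at 4.69, 5.42 and 5.3 FPKM in the controls and 3.73, 4.18 and 4.75 FPKM after irradiation, with 2 of 3 irradiated libraries below all controls and -0.24 on the log2 scale (SE 0.083, adjusted p = 0.0445). That call was lost without H446 control replicate 2 or 3 (adjusted p = 0.14 and 0.118), without H446 10 Gy replicate 1 or 2 (0.125 and 0.0916), and in 4 of the other settings, within 0.0199 to 0.164 over all alternatives. ALDH7A1 rose from 28.97, 29.16 and 30.32 FPKM to 33.05, 31.5 and 33.39 FPKM, by 0.14 (SE 0.04, adjusted p = 0.0181, 3 of 3 above). Its call was lost without H446 control replicate 1 or 2 (adjusted p = 0.069 and 0.0665), without H446 10 Gy replicate 3 (0.0588) and with the GC trend removed (0.0591), within 0.0133 to 0.069. ALDH2 (21.2 and 20.1 FPKM, -0.07, adjusted p = 0.256) and ALDH1B1 (26.4 and 26.8 FPKM, 0.02, adjusted p = 0.707) did not pass. In all, 4 of the 7 members tested fell and 1 rose in H446, where 38.4% of 11479 genes changed, 14.8% up and 23.6% down. That genome-wide balance depends on the scale, with 1698 up and 2709 down here and 2171 up and 2183 down after quantile normalization. Without H446 control replicate 2, or with the GC trend removed, 3 members were called in place of 5. The base composition of the libraries differs between the groups in H446, as given above, and its part in the calls for ALDH1A3 and ALDH7A1 was tested only by that removal.

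The rest of the members did not pass the filter in H446. ALDH1A1 was listed at 0.03, 0 and 0 FPKM in the controls and at 0.06, 0.54 and 0.81 FPKM after irradiation, so all 3 irradiated values were above the controls but below 1 FPKM. ALDH4A1 stayed at 0.81 to 1.03 FPKM. ALDH1A2 was at 0.17, 0.23 and 0.14 FPKM in the controls and 0.33, 0.29 and 0.29 FPKM after irradiation, also with 3 of 3 above. With no filter ALDH1A2 passed (0.14, adjusted p = 0.0472) and ALDH1A1 did not (0.51, adjusted p = 0.183). With all 18 libraries in 1 fit ALDH1A1 (0.51) was tested in H446 only because it passed the filter in A549, where it is high. It was called there, which made 6 members in place of 5, but no p-value is given and no weight can be put on that call.

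In BEAS-2B 0 of the 7 members tested changed, and 0% of 11734 genes were called by limma in that line, with 1446 genes at an unadjusted p under 0.05. ALDH7A1, its most abundant member, was at 82.59, 80.25 and 84.21 FPKM in the controls and 82.56, 81.12 and 86.03 FPKM after irradiation, a log2 fold change of 0.02 with a 95% interval of -0.14 to 0.17 (0.03 and -0.14 to 0.20 without 10 Gy replicate 2). ALDH2 was at 14.77, 15.62 and 14.78 FPKM in the controls and 16.32, 18.67 and 16.07 FPKM after 10 Gy. Its 3 irradiated libraries were above all controls, but 0.16 on the log2 scale (SE 0.082, adjusted p = 0.438) did not pass. The intervals of the 7 members ran from -0.28 at the lowest (ALDH3A2) to 0.35 at the highest (ALDH2), and without 10 Gy replicate 2 from -0.31 (ALDH3B1) to 0.41 (ALDH1A3). ALDH1A1, ALDH1A2 and ALDH3A1 were at most 0.24 FPKM and were not tested. Without BEAS-2B 10 Gy replicate 2, 1.97% of the genes were called (231) and still 0 of the 7 members, with ALDH2 at 0.10 (adjusted p = 0.71) and ALDH1A3 at 0.20 (adjusted p = 0.471). For ALDH3B1 that library was the highest of the line at 25.33 FPKM, beside 18.82 and 17.49 FPKM in the other irradiated libraries, and its log2 fold change was 0.02 with the library and -0.13 without it.

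**Figure D2:**
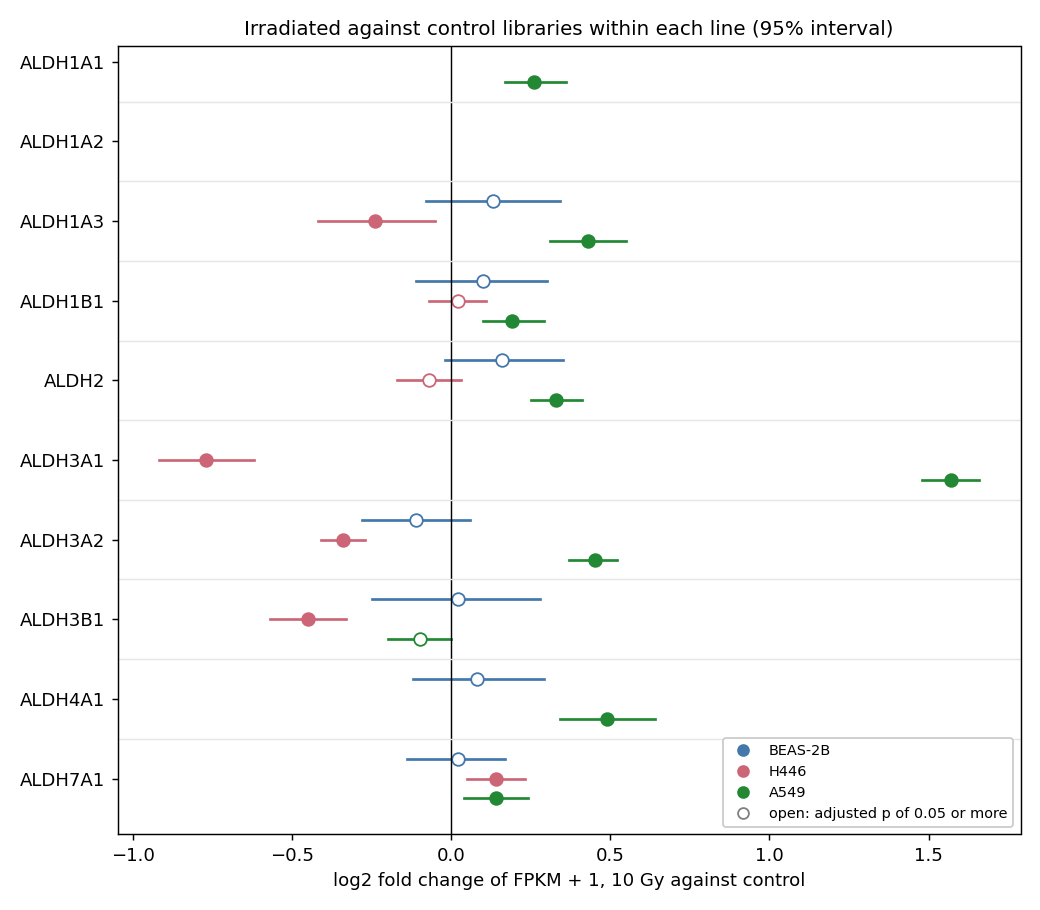
Log2 fold change of FPKM + 1 after 10 Gy for each member tested in each line, with the 95% interval of the limma fit (3 against 3 libraries) and filled points for an adjusted p under 0.05. ALDH3A1 lies at 1.57 in A549 and -0.77 in H446, while the intervals of BEAS-2B include 0 for its 7 members.

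Whether the lines differed in their response was tested directly, as the difference of their log2 fold changes in a fit of all 18 libraries. A member low in 1 line can enter this fit through the others, and there the added 1 FPKM holds its response down. The response was near 0 for ALDH3A1 in BEAS-2B (0.05 to 0.24 FPKM), ALDH4A1 in H446 (0.81 to 1.03 FPKM) and ALDH1A1 in BEAS-2B. Their differences from these lines largely restate the change in the other line. In H446 ALDH1A1 was also below 1 FPKM, but its group mean on the log2 scale went from 0.01 to 0.52. Its differences that involve H446 rest on those low values. ALDH3A1 differed by 2.34 (SE 0.1, adjusted p = 2.87e-11), ALDH3A2 by 0.79 (SE 0.062, adjusted p = 6.75e-08) and ALDH1A3 by 0.66 (SE 0.11, adjusted p = 0.000246), each with 3 of 3 A549 libraries above their controls and 3, 3 and 2 of 3 H446 libraries below theirs. ALDH3A1 and ALDH3A2 moved in opposite directions in these lines, and for ALDH1A3 the fall in H446 was lost in 8 of 13 alternatives, as given above. ALDH2 differed as well (0.40, adjusted p = 0.000523, 3 of 3 A549 libraries above the controls), and ALDH4A1 at 0.53 (adjusted p = 0.000919) gives the A549 rise against the low levels of H446. ALDH3B1 differed by 0.35 (SE 0.13, adjusted p = 0.0455), which was lost in 16 of 25 alternatives, within 0.00223 to 0.11. Without BEAS-2B 10 Gy replicate 2, which is in neither line compared but enters the pooled error, the SE was 0.079 and the adjusted p 0.00223. Among the libraries whose removal ended that call were all 6 controls of A549 and H446 (0.0506 to 0.11), H446 10 Gy replicates 2 and 3 (0.11 and 0.0688), A549 10 Gy replicates 1 and 2 (0.0967 and 0.0927) and BEAS-2B control replicates 1 and 3 (0.0533 and 0.052). ALDH7A1, which rose by 0.14 in each tumour line, differed by 0.00 with an interval of -0.14 to 0.14. ALDH1A1 was at -0.24 (adjusted p = 0.272) and passed with a pseudocount of 0.1 (-1.79, adjusted p = 0.0183) and without H446 10 Gy replicate 1 (-0.46, 0.000596), within 0.000596 to 0.709, and ALDH1B1 at 0.17 (adjusted p = 0.143) passed with only the 12 libraries of these lines (0.00965), within 0.00965 to 0.327. Counted with ALDH4A1, 6 of 9 members had a higher response in A549 and 0 a lower one, beside 34.6% of 13071 genes (19.3% higher, 15.3% lower). The balance over all genes was 2524 up and 2002 down, and 2248 up and 2301 down after quantile normalization.

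A549 and BEAS-2B differed for 3 of 9 members, all higher in A549, beside 30.6% of 13071 genes (14.6% higher, 16% lower), a balance of 1910 up and 2089 down that turned to 2154 up and 1938 down after quantile normalization. They were ALDH3A1 (1.51, SE 0.1, adjusted p = 8.82e-09), ALDH3A2 (0.56, SE 0.062, adjusted p = 3.73e-06) and ALDH4A1 (0.41, SE 0.11, adjusted p = 0.00712), each with 3 of 3 A549 libraries above their controls and at most 1 of 3 BEAS-2B libraries. For ALDH3A1, which did not pass the filter in BEAS-2B, this is the A549 rise against a floor. Without BEAS-2B 10 Gy replicate 2 they were at 1.56, 0.55 and 0.48, and ALDH2 passed as well (0.23, adjusted p = 0.0115, against 0.17 and 0.0986 with it, within 0.0115 to 0.216). With quantile normalization ALDH2 (0.031) and ALDH7A1 (0.13, adjusted p = 0.151, and 0.0329 there) passed too, and the range of ALDH7A1 was 0.0329 to 0.347. ALDH1A3 (0.30, adjusted p = 0.0556) passed without BEAS-2B control replicate 3, BEAS-2B 10 Gy replicate 1, H446 10 Gy replicate 1 or H446 10 Gy replicate 3 (adjusted p = 0.0357, 0.0312, 0.0438 and 0.0433), with quantile normalization (0.0242) and with the GC trend removed (0.0328), within 0.0242 to 0.131. ALDH1A1 (0.24, adjusted p = 0.3) passed with only the 12 libraries of these lines (0.0164) and without H446 10 Gy replicate 1 (0.0316), within 0.0164 to 0.943, and leaving out that library gave 5 members. BEAS-2B, where ALDH1A1 is near 0, gives no response to compare with.

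H446 and BEAS-2B differed for 6 of 9 members, 5 lower and 1 higher in H446, beside 22.7% of 13071 genes (8.99% higher, 13.7% lower). The count includes ALDH1A1, which did not pass the filter in either line, and ALDH3A1, which did not pass it in BEAS-2B. After quantile normalization the balance over all genes turned, from 1175 up and 1796 down to 1542 up and 1236 down. For ALDH3A1 the difference (-0.83, SE 0.1, adjusted p = 7.06e-05, 3 of 3 H446 libraries below their controls) restates its fall in H446. ALDH3A2, abundant in both lines, differed under every alternative (-0.23, SE 0.062, adjusted p = 0.0152, 3 of 3). ALDH3B1 (-0.47, SE 0.13, adjusted p = 0.0165, 3 of 3) was lost with the GC trend removed (0.0959) and with only the 12 libraries of the lines compared (0.0553), within 0.00169 to 0.0959. The other calls were fragile. ALDH1A3 (-0.37, adjusted p = 0.0284, 2 of 3 below) was lost in 11 of 25 alternatives (0.0126 to 0.0804), among them those without BEAS-2B control replicate 1 or 3 (0.0627 and 0.07), BEAS-2B 10 Gy replicate 1 (0.0773), H446 control replicate 2 or 3 (0.0694 and 0.0609) and H446 10 Gy replicate 1 or 2 (0.066 and 0.0562). ALDH2 (-0.23, adjusted p = 0.0335, 2 of 3 below) was lost in 9 of 25 (0.01 to 0.0888), among them those without BEAS-2B control replicate 1 or 3 (0.0794 and 0.0631), BEAS-2B 10 Gy replicate 2 (0.0781), H446 control replicate 3 (0.0846) and H446 10 Gy replicate 2 or 3 (0.0864 and 0.0604). ALDH1A1 (0.48, adjusted p = 0.0436, 3 of 3 above) is below 1 FPKM in both lines, and its call was lost in 19 of 25 alternatives (0.000117 to 0.175), with every single library left out except H446 10 Gy replicate 1 (0.000117) and BEAS-2B 10 Gy replicate 3 (0.0448), so no weight can be put on it. Leaving out BEAS-2B control replicate 1 or 3, H446 control replicate 3 or H446 10 Gy replicate 2 left 3 members called. Without BEAS-2B 10 Gy replicate 2 there were 4, namely ALDH3A1 (-0.78), ALDH3A2 (-0.24), ALDH3B1 (-0.31) and ALDH1A3 (-0.43), and ALDH1A1 and ALDH2 were lost (adjusted p = 0.062 and 0.0781). The 3 sets of differences share libraries and are not independent of one another.

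**Figure D3:**
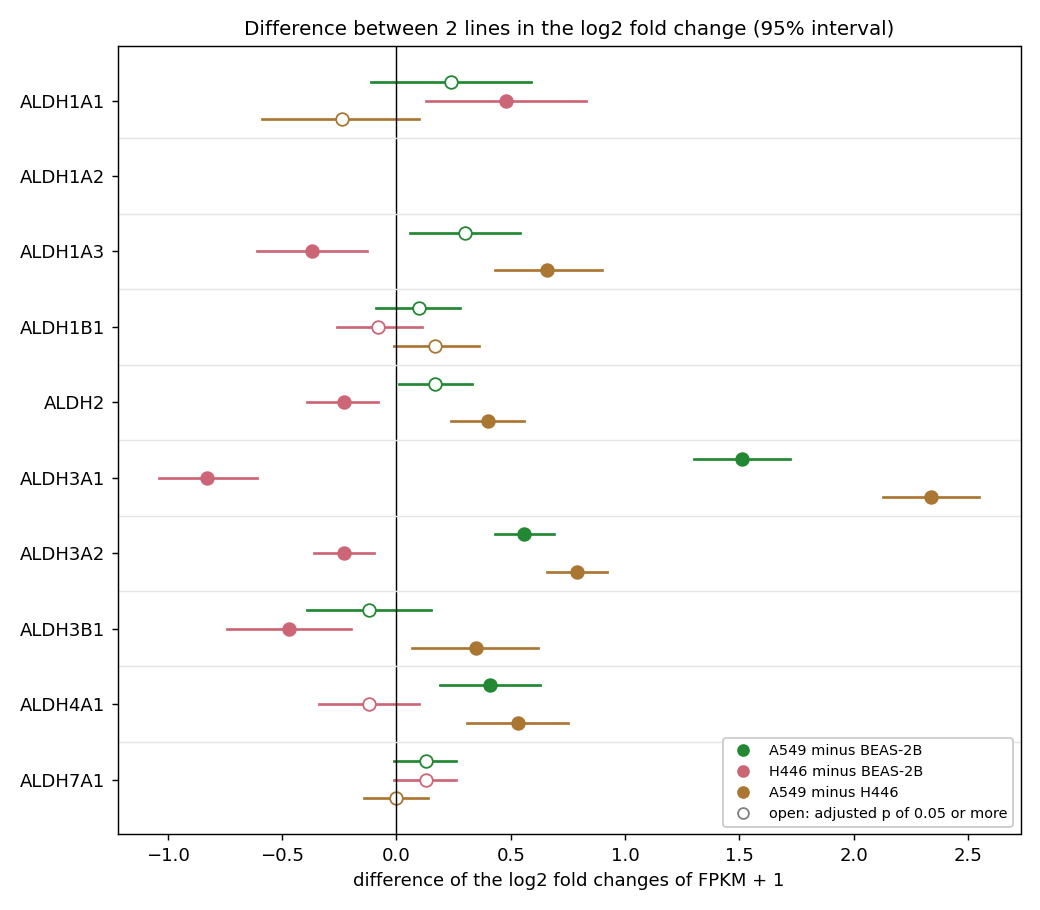
Difference between lines in the log2 fold change after 10 Gy for each member tested, with the 95% interval of the limma fit over 18 libraries and filled points for an adjusted p under 0.05. ALDH3A1 stands at 2.34 for A549 minus H446, ALDH7A1 at 0.00, and ALDH1A2 was not tested.

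As a whole, the family took up more of the RNA in A549 than in the other lines. The 10 members summed to 2496 ± 2.48 FPKM in A549 controls, 265 ± 4.61 in H446 and 179 ± 1.12 in BEAS-2B (SD, n = 3). After 10 Gy the sums were 4155 ± 135, 215 ± 7.03 and 182 ± 3.59 FPKM. As a share of all FPKM in a library, the A549 sum went from between 0.498% and 0.515% to between 0.815% and 0.851%, and the H446 sum from between 0.0552% and 0.0565% to between 0.0436% and 0.0475%. These sums describe the libraries and were not tested. ALDH1A1 and ALDH3A1 made up most of the A549 sum, and the other 8 members together were at 310 ± 0.976 FPKM in the controls and 364 ± 6.02 FPKM after 10 Gy, with 213 ± 2.39 and 184 ± 4.15 FPKM in H446. The leading member differed by line: ALDH7A1 held 43.5% to 47.8% of the sum in BEAS-2B and ALDH3A2 29.4% to 31.8% in H446, while in A549 the lead passed from ALDH1A1 (61% to 61.7% in the controls) to ALDH3A1 (46.1% to 47.8% after irradiation).

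**Figure D4:**
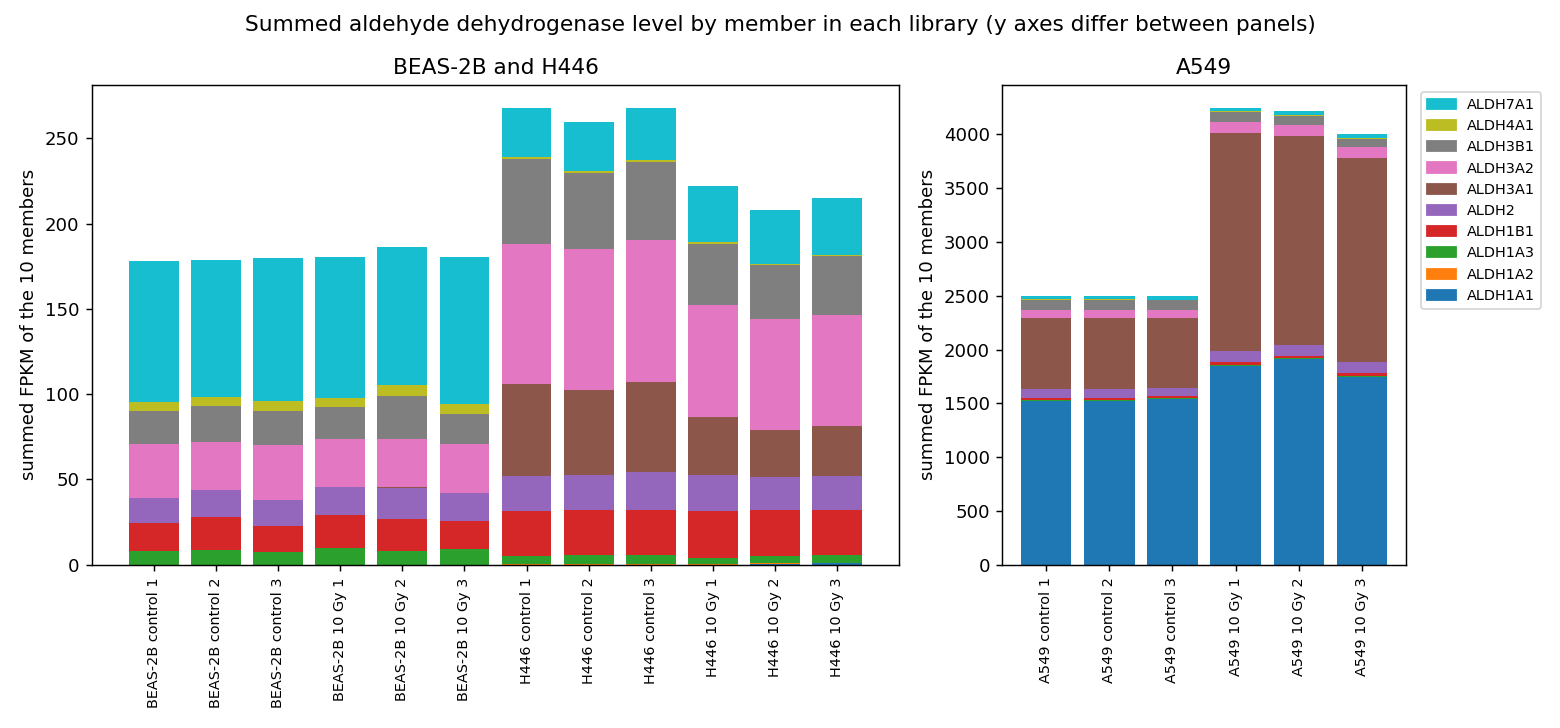
Summed FPKM of the 10 members in each library, stacked by member, with separate y axes from 0 for A549 and for the other lines. The A549 sum is about 2496 in controls and 4155 after 10 Gy, and the ALDH3A1 segment takes the larger part of the increase.

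Other enzymes of the family were counted beside the members. Of 9 other aldehyde dehydrogenases listed, 8 were in the table (ALDH3B2 was not analysed here), and in A549 0 rose and 2 fell among the 6 tested, with a median of 0.05, where 25.3% of all genes rose and 26.4% fell. ALDH1L2, the mitochondrial folate enzyme that oxidises formyl-tetrahydrofolate, went from 12.6 to 6.82 FPKM (-0.80, SE 0.067, adjusted p = 1.53e-06), and ALDH9A1, which acts on the aldehyde of the carnitine route, from 30.8 to 27.7 FPKM (-0.15, SE 0.043, adjusted p = 0.0132). The response of ALDH1L2 differed from that of BEAS-2B (-0.75, adjusted p = 4.65e-05, and -0.76, 7.99e-05 without BEAS-2B 10 Gy replicate 2) and of H446 (-0.86, adjusted p = 7.91e-06). For A549 minus H446 the list had 2 up and 1 down of 7, where 19.3% of all genes were higher and 15.3% lower. Those up were ALDH5A1 (0.34, adjusted p = 0.0244) and ALDH18A1 (0.32, 0.0111). For H446 minus BEAS-2B ALDH18A1 was at -0.30 (adjusted p = 0.0249), lost without BEAS-2B 10 Gy replicate 2 (-0.25, 0.0608). In H446 0 rose and 2 fell of 6, where 14.8% of all genes rose and 23.6% fell. ALDH18A1, the first enzyme of proline synthesis, went from 24.5 to 20 FPKM (-0.28, adjusted p = 0.00186). ALDH5A1, which completes the breakdown of GABA, went from 3.5 to 2.96 FPKM (-0.18, adjusted p = 0.0431). In BEAS-2B 0 of 7 changed, with or without 10 Gy replicate 2. ALDH6A1 (4.33 to 6.24 FPKM over the group means) and ALDH16A1 (5.41 to 8.31 FPKM) changed in 0 of the 3 lines, ALDH1L1 passed 1 FPKM only in BEAS-2B (1.07 and 1.13 FPKM), and ALDH8A1 stayed at or below 0.64 FPKM.

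Genes that supply or use the members' substrates were counted from lists, to be read beside the shares of all genes that rose and fell: 25.3% and 26.4% in A549, 14.8% and 23.6% in H446. Around the retinal dehydrogenases, the retinoid list (16 genes) had 5 up and 4 down of 12 tested in A549, with RDH10, which makes retinal, at 0.57 and the transporter STRA6 at 0.46, while the receptor RARA was at -0.48 and RXRA at 0.37. In H446 the list had 1 up and 3 down of 11, with CYP26B1, which degrades retinoic acid, at -0.38, RXRA at -0.25, STRA6 at -0.20 and RDH11 at 0.16. The medians were -0.04 and -0.07 on the log2 scale, against 0.00 and -0.03 over all genes, and the genes of this list went both ways. The alcohol dehydrogenases and carbonyl reductases had 3 up and 2 down of 8 in A549, led by the aldose reductase AKR1B1, which rose from 635 to 902 FPKM (0.50), with AKR1A1 at 0.19, CBR1 at 0.16 and DCXR at -0.22. In H446 0 rose and 4 fell of 8 (AKR7A2 -0.33, DCXR -0.28, CBR1 -0.20 and AKR1A1 -0.15), and ADH1A, ADH1B and ADH7 were not analysed here.

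The proline, lysine and choline list holds the neighbours of ALDH4A1 and ALDH7A1 in metabolism. In A549 1 rose and 4 fell of 8, with a median of -0.10, beside 25.3% up and 26.4% down over all genes. PYCR1, which makes proline, fell from 49.4 to 28.2 FPKM (-0.79), as did AADAT of lysine breakdown (-0.20), and OAT rose (0.13). In H446 0 rose and 6 fell of 8, median -0.27, beside 14.8% up and 23.6% down, with PYCR1 at -0.19 and GOT2 at -0.14. Around ALDH3A2, the fatty aldehyde and sphingolipid list had 5 up and 1 down of 9 in A549 (median 0.14), among them the glutathione transferase GSTA4 (0.38), PTGR1 (0.31) and PHYH (0.31), with the sphingosine phosphate lyase SGPL1, a source of fatty aldehyde, at -0.34. In H446 the same list had 1 up and 1 down of 10 (HACL1 0.20, SPHK1 -0.21). NRF2 target genes, a group to which ALDH3A1 is often assigned, had 6 up and 3 down of 12 in A549 (median 0.09), with HMOX1 at 0.48 and GCLM at 0.41 but SLC7A11 at -0.61 and OSGIN1 at -0.41. In H446 they had 0 up and 8 down of 12 (median -0.20), with SRXN1 at -0.30, HMOX1 at -0.29 and PGD at -0.23. In BEAS-2B 0 genes of these 5 lists changed, and without 10 Gy replicate 2 the retinoid list had 1 up and the others 0.

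**Figure D5:**
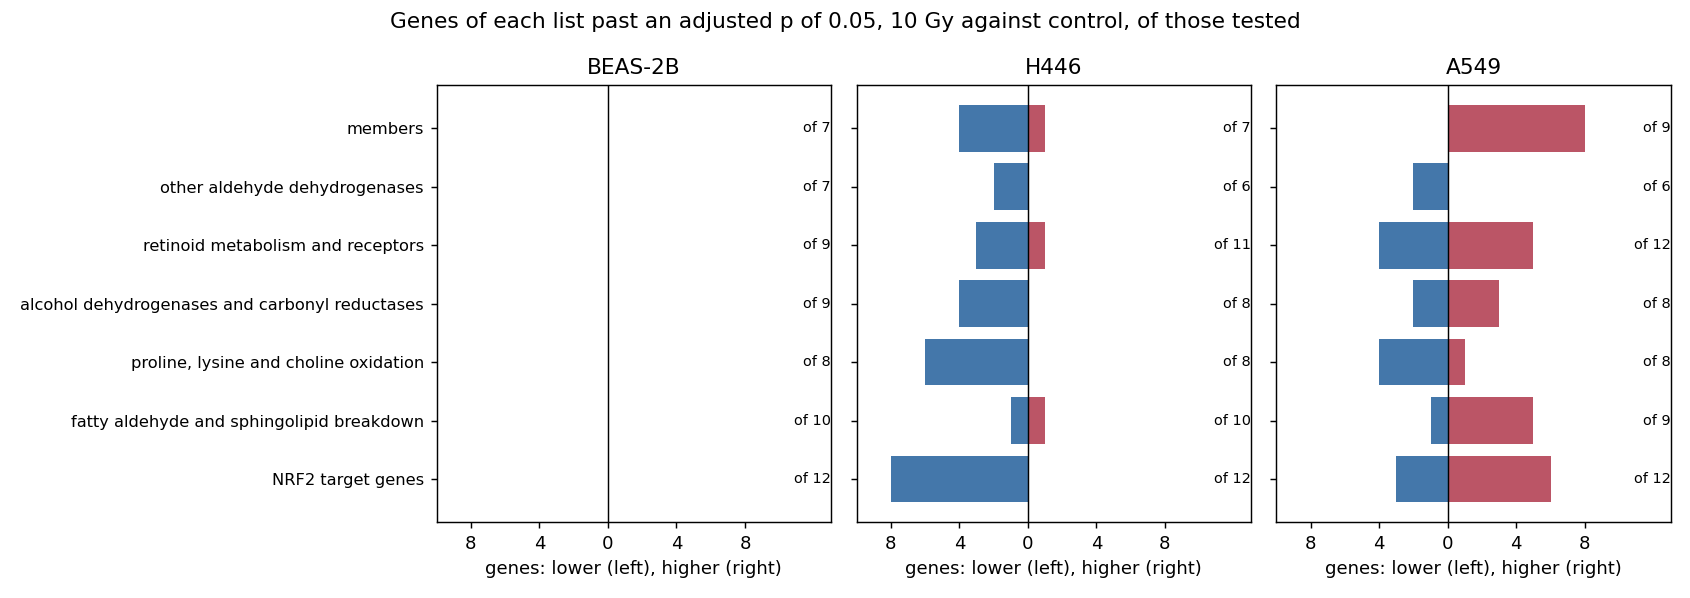
Number of genes per list that were higher (red, right) or lower (blue, left) after 10 Gy at an adjusted p under 0.05 in each line, with the number tested at the right margin. Of the members 8 of 9 are higher in A549, 4 lower and 1 higher of 7 in H446, and 0 of 7 changed in BEAS-2B.

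In unirradiated cells most genes differ between lines (82.6% to 85.1%), and list counts are to be read beside that share. Of 12 NRF2 target genes 11 were higher in A549 than in BEAS-2B and 0 lower, with SLC7A11 at 5.25, NQO1 at 3.25, PGD at 3.19 and OSGIN1 at 2.87 on the log2 scale, and 9 were higher in H446 than in BEAS-2B and 3 lower, with SLC7A11 at 4.49 and NQO1 at 1.98. A549 exceeded H446 for 10 of 12. The median of the NRF2 list was 1.68 for A549 minus BEAS-2B, against -0.07 over all genes, and 0.61 for H446 minus BEAS-2B, against -0.09. Other lists went both ways between A549 and BEAS-2B controls: retinoid genes 8 up and 4 down of 12 (median 1.22), reductases 2 up and 4 down of 9 (-0.11), proline and lysine genes 5 up and 3 down of 9 (0.37) and fatty aldehyde genes 4 up and 5 down of 10 (-0.12).

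Across the 18 libraries the genes most like the 3 members with the widest range were named by Pearson's r of log2(FPKM + 1) over 13071 genes. For ALDH1A1 they were SPP1, VCAM1 and SEMA3A (r = 0.999 each), all near 0 in BEAS-2B and H446 and at 244, 62.3 and 14.4 FPKM in A549 controls. For ALDH3A1 they were SOX4 (0.997), LGR4 (0.996) and NQO1 (0.995), and for ALDH2 HIPK2, ABCC2 and PTPN6 (0.997 each). The 18 libraries fall into 3 lines, so these values mostly restate the differences between lines. Within A549 the genes near ALDH3A1 moved less than it did, with SOX4 from 19 to 28.7, LGR4 from 58.2 to 85.6 and NQO1 from 513 to 608 FPKM, against 657 to 1956 FPKM.

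The members lie on 7 chromosomes, and only 1 pair are close neighbours (RefSeq, GRCh38.p14). ALDH3A2 (chr17:19648136-19677596, plus strand) and ALDH3A1 (chr17:19737984-19748298, minus strand) are 60387 bases apart with 1 coding gene, SLC47A2, between them. Both fell in H446 and rose in A549, but ALDH3A2 was abundant in BEAS-2B, where ALDH3A1 was near 0. ALDH1A1 (chr9:72900671-72953053, minus strand) shares its chromosome with ALDH1B1 (chr9:38392702-38398661, plus strand), and ALDH1A2 (chr15:57953429-58065711, minus strand) with ALDH1A3 (chr15:100879831-100916626, plus strand). The others are ALDH2 (chr12:111766933-111817532, plus strand), ALDH3B1 (chr11:68008547-68029276, plus strand), ALDH4A1 (chr1:18871430-18902555, minus strand) and ALDH7A1 (chr5:126541841-126595219, minus strand).

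How well reads of 50 bases can be assigned differs between the members. No 50-base word of any GENCODE 29 transcript was shared between 2 members, so the paralogs measured here do not share reads of that length that match exactly. ALDH1A1 shared 0% of its words with any other gene, and ALDH1B1, ALDH3A1, ALDH3A2, ALDH3B1 and ALDH7A1 shared 0.212% to 2.69%, in part with the pseudogene ALDH7A1P1 and the paralog ALDH3B2. ALDH1A2 shared 4.63%, with AQP9 and AC025431.1. ALDH4A1 shared 37.6%, with AL080251.1, a coding gene model that spans it on the same strand, ALDH1A3 24.3%, with AC015712.2 on the opposite strand and AC015712.5, and ALDH2 9.45%, mainly with AC002996.1 on the same strand. The levels of these 3 members are less certain for that reason. The shares count distinct words of annotated transcripts and not reads, so they do not give the size of that uncertainty. The strand used in counting was not given, so reads of AC015712.2 or of AC005722.3, which overlaps ALDH3A1 in antisense, cannot be told apart from those of the members.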

How the data were processed

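The FPKM values were computed by the authors, who aligned the reads and quantified genes before they deposited a processed table of 18475 genes by 18 libraries. The unit was inferred from 2 decimals, differing library totals and the listed tools. The submitters' processing notes name HISAT2 2.0.4, Bowtie2 2.2.5, RSEM 1.2.12 and hg38, and their publication gives single-end reads of 50 bases on BGISEQ-500. Gene symbols were matched for 18181 genes.

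Each comparison was fitted with limma 3.58.1 (lmFit, eBayes with trend) in R 4.3.3 on log2(FPKM + 1). Genes needed at least 1 FPKM in at least 3 of the libraries compared. For differences of response, and in the joint fit of all 18 libraries, they needed it in at least 3 libraries of the same line. The p-values were adjusted by Benjamini-Hochberg over those genes with a threshold of 0.05. Comparisons within a line used its 6 libraries, those between controls 9 libraries, and differences of response 18. An exact permutation test of 3 against 3 libraries cannot give a p under 0.1. Python 3.11.15 with pandas 2.3.3, numpy 2.4.6 and matplotlib 3.10.9 did the rest, and the code was tested on simulated data.

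Alternatives were quantile normalization, a pseudocount of 0.1, no filter, removal of a loess trend with GC content (span 0.5), rescaling to equal totals, a block for replicate numbers, a joint fit of all 18 libraries or one of only the 12 from the lines compared, and each library left out. Genes named from a list are at most 4 per comparison with the largest absolute fold change among those that passed and had a mean of at least 5 FPKM in a group. Some genes that met this rule are not reported here, though the counts and medians of their lists include them. All members and all other aldehyde dehydrogenases in the table are named, as are CDKN1A and MDM2 and, for the 3 members with the widest range, the 3 genes of highest correlation. The members and the lists were chosen with earlier results of these data known.

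Listed genes absent from the table and not analysed here were ALDH3B2, ADH1A, ADH1B, ADH7, SFTA2, NEUROD1, INSM1 and CD3E.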

Additional observations from a re-analysis of the deposited data

Results flagged for a closer look

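Differences between lines in the response of a member to 10 Gy, as differences of log2 fold changes in limma, were as follows. For A549 minus BEAS-2B they were 1.51 for ALDH3A1, 0.56 for ALDH3A2 and 0.41 for ALDH4A1, with 0 of 25 alternatives changing the call. ALDH3A1 is at 0.05 to 0.24 FPKM in BEAS-2B and passed the filter only through the other lines, so its difference is the A549 change against a floor.

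For H446 minus BEAS-2B they were -0.83 for ALDH3A1, -0.47 for ALDH3B1, -0.37 for ALDH1A3, -0.23 for ALDH2, -0.23 for ALDH3A2 and 0.48 for ALDH1A1. ALDH3A2 held in all 25 alternatives, and the value of ALDH3A1 is the H446 change against the floor of BEAS-2B. ALDH1A1, below 1 FPKM in both lines, was lost in 19 of them, ALDH1A3 in 11, ALDH2 in 9 and ALDH3B1 in 2.

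For A549 minus H446 they were 2.34 for ALDH3A1, 0.79 for ALDH3A2, 0.66 for ALDH1A3, 0.53 for ALDH4A1, 0.40 for ALDH2 and 0.35 for ALDH3B1. ALDH3B1 was lost in 16 of 25 alternatives and the others in 0, and ALDH4A1 did not pass the filter in H446. Causes of these differences were not tested.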

How the results depend on the processing

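Over 1406 alternative results of members, the call was the same in 1308, lost in 79, gained in 19 and reversed in 0. In 22 the fold change changed sign without passing the threshold. These counts describe calls, and the size of a fold change could move where its call stayed the same. Of 162 alternative member counts 10 moved by over 1.5 times. Members called in H446 went from 5 to 3 with the GC trend removed. For the response of A549 minus BEAS-2B they went from 3 to 6 with quantile normalization, and for H446 minus BEAS-2B from 6 to 3 with the GC trend removed and to 2 with only 12 libraries.

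Leaving out each library gave 0 to 0 members in BEAS-2B (0 with all), 3 to 4 in H446 (5) and 7 to 9 in A549 (8). Between controls it gave 7 to 8 for A549 and BEAS-2B (7), 8 to 8 for H446 and BEAS-2B (8) and 7 to 8 for A549 and H446 (8). For responses it gave 3 to 5 for A549 minus BEAS-2B (3), 3 to 6 for H446 minus BEAS-2B (6) and 5 to 7 for A549 minus H446 (6).

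Genes called in BEAS-2B went from 0 to 10 with no filter, 439 with the block, 842 with all 18 libraries and 231 without BEAS-2B 10 Gy replicate 2. For the response of H446 minus BEAS-2B they went from 2971 to 1491 with the GC trend removed, 1855 with only 12 libraries, 1814 without BEAS-2B control replicate 1 and 4534 without BEAS-2B 10 Gy replicate 3.

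Control and irradiated libraries of the same replicate number were compared by the r of their deviations across genes. It was -0.125 to 0.324 in BEAS-2B, 0.0102 to 0.19 in H446 and -0.0993 to 0.01 in A549. Whether the numbers mark pairs was not tested. With the number as a block no member count changed, though genes called in BEAS-2B went from 0 to 439.

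FPKM from a processed table hides read counts, so count models could not be used. Each line has 3 libraries per group. The publication says in general that experiments were repeated, not that these libraries came from separate cultures.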
